A study of Mus musculus with 9 samples.

Results

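The 10 genes described here code for proteins of T cells and natural killer (NK) cells: the CD3 chains Cd3d, Cd3e and Cd3g, the coreceptor chain Cd8a, the granule proteins Gzma, Gzmb and Prf1, and the NK receptors Klrd1, Klrk1 and Ncr1. They were chosen by name, as genes whose transcripts would mark T or NK cells among sorted microglia, and all 10 were among the 757 genes of the deposited table. The samples were CD45+CD11b+7-AAD- cells, sorted in numbers of 1000 to 1500 as microglia-like cells from the brains of mice (wild-type C57BL6/J in the methods, young adults). Transcripts were counted lane by lane on a NanoString mouse neuroinflammation panel from 65 ng of RNA. Mice had received either a transient ischemic attack (TIA), made by a brief filament occlusion of the middle cerebral artery, and were taken after 24 h (TIA 24h) or 3 d (TIA 3d), or the same surgery with no filament (Sham), with 3 animals per group. All brains, those of Sham mice included, were placed in a salt solution with actinomycin D, a blocker of transcription, before dissociation.

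T cells recognise antigen through a receptor that signals through the CD3 chains, and killer T cells carry CD8 as a coreceptor. Killer T cells and NK cells store perforin and granzymes in granules, and NK cells read their targets through receptors such as NKG2D (Klrk1), NKp46 (Ncr1) and CD94 (Klrd1). The healthy brain parenchyma holds few such cells, and they can enter after ischemia. CD11b (Itgam), used in the sort, is an integrin chain of microglia and other myeloid cells that many NK cells also carry and most T cells do not. A sort on CD11b can therefore leave most T cells out, and the levels below describe the sorted cells and not the whole brain.

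The deposited values are log2 of counts that the authors had scaled per lane by housekeeping probes. In every lane they were whole multiples of 1 step, so the whole counts behind them could be recovered. Totals over the 757 genes ranged from 6560 to 25582 after sham surgery, from 7248 to 10929 after 24 h and from 29200 to 62883 after 3 d. The lanes of the TIA 3d group all exceeded the other 6 in depth, so depth and TIA 3d cannot be told apart. The markers of the labelled cell type moved with depth: the 12 measured microglia markers summed to 221 to 6515 counts after sham surgery, 194 to 709 after 24 h and 6585 to 12336 after 3 d. P2ry12, a purinergic receptor of resting microglia, had 742, 197 and 13 counts after sham surgery, 38, 27 and 12 after 24 h and 652, 596 and 438 after 3 d. In Sham replicate 3 the top gene of the lane, the microglia marker C1qc, reached 32 counts, and 10 of the 12 markers lay above the upper quartile of 11 counts. The fewest did so in TIA 24h replicate 3, where 5 of 12 were above an upper quartile of 12.

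The first question was whether any of the 10 genes stood above the lower quartile of the genes of its own lane. The lower quartile lay at 8, 8 and 5 counts in the Sham lanes, at 7, 6 and 5 at TIA 24h and at 12, 10 and 11 at TIA 3d. Of the 90 values of the 10 genes, 41 (45.6%) were over the quartile of their lane, beside 73.1% of the values of all genes, and 10 (11.1%) were over the lane median. No gene of the 10 was over it in all 9 lanes, whereas 33.8% of all genes were. Ncr1 was over it in 0 lanes, Klrd1 in 1, Prf1 in 2, Cd8a, Gzma and Gzmb in 4 each, Cd3g in 5, Cd3d in 6, Klrk1 in 7 and Cd3e in 8. By group, 16 of 30 values were over the quartile in Sham, 16 of 30 at TIA 24h and 9 of 30 at TIA 3d. The shallowest lanes, Sham replicate 3 and TIA 24h replicate 3, held 8 of 10 and 7 of 10 values over the quartile. Of all genes 72.3% and 72.7% were over it in these lanes. Without these lanes, 26 of the remaining values of the 10 genes were over it. Without TIA 3d replicate 3, Cd3e was over the quartile in every lane and was the 1 gene of the 10 that was.

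Counting error covered most of these positions. The 10 genes had 1 to 27 counts per lane, 61 of 90 values were under 10 counts and 15 were at 1 to 3. For 74 values the exact 95% Poisson interval, which covers counting error only, contained the quartile of the lane. For 8 it lay wholly above, in Cd3e (Sham replicate 2, TIA 24h replicate 2 and TIA 3d replicates 1 and 2) and in Klrk1 (Sham replicate 3 and all 3 TIA 24h lanes). For another 8 it lay wholly below, in Ncr1, Gzma, Cd8a, Prf1 and Klrd1. The count of 1 was the lowest in the table, and it is not stated whether a 0 had been raised to it, so no value is read as absence of a transcript. The probes differ in how well they capture their transcripts, and positions in a lane rank counts and not transcript abundance.

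**Figure D1:**
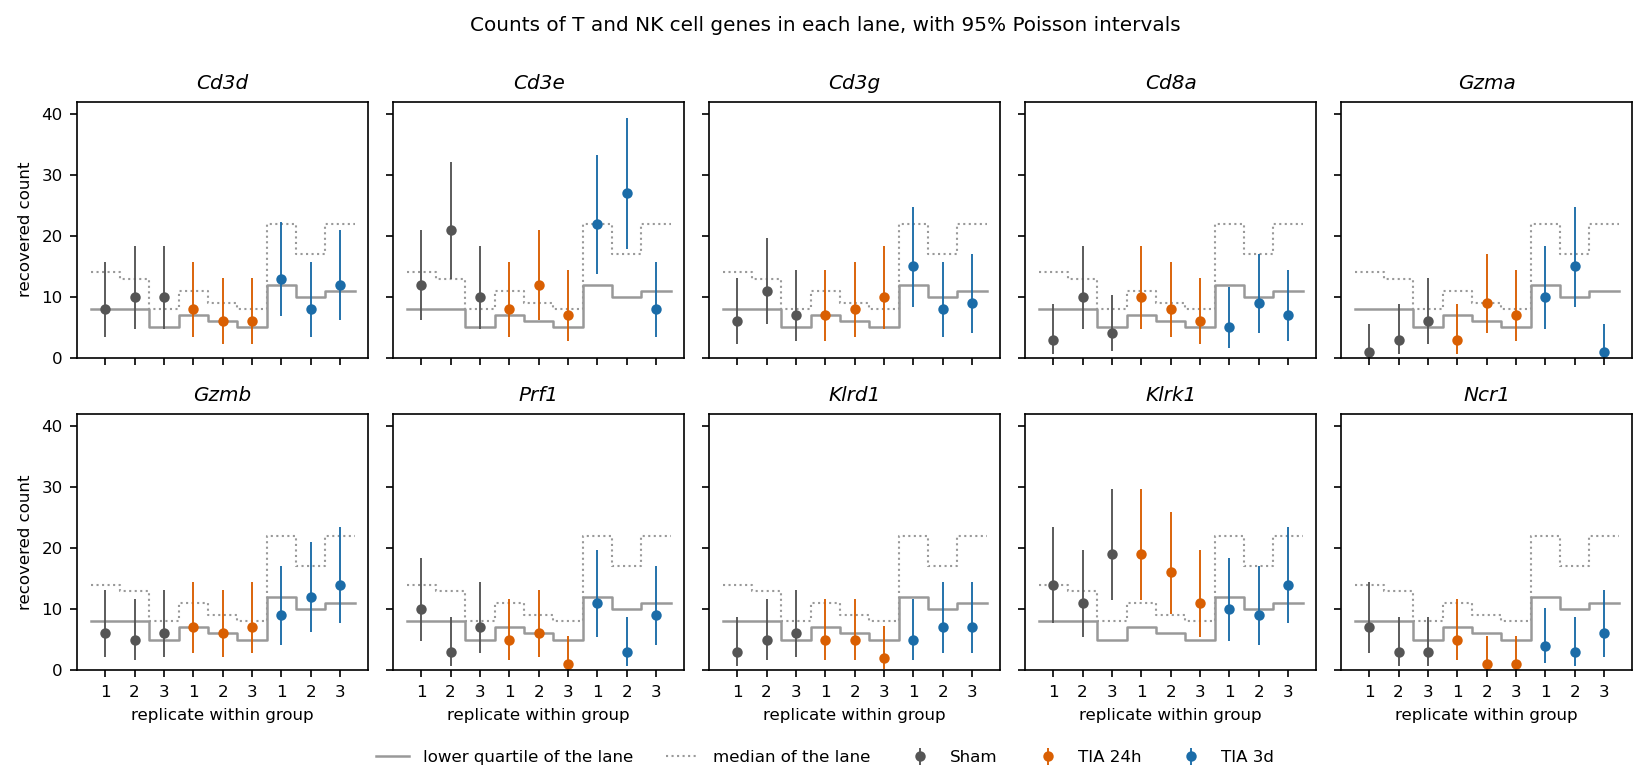
Recovered counts (vertical axis, linear) of each T and NK cell gene in the 9 lanes (horizontal axis, replicates 1 to 3 of Sham, TIA 24h and TIA 3d), with bars for the exact 95% Poisson interval, the solid grey line for the lower quartile of all genes of the lane and the dotted line for the lane median. In 74 of 90 values the bar contains the quartile, and Cd3e and Klrk1 are the genes whose bars clear it, in 4 lanes each.

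Among the CD3 chains, which assemble with the T cell receptor and carry its signal, Cd3e had the highest mean count in each group. Its mean of 14.1 counts over the 9 lanes was also the highest of the 10 genes. By group, the Klrk1 mean was above it in Sham (14.7 against 14.3) and at TIA 24h (15.3 against 9). At TIA 3d Cd3e was above Klrk1 (19 against 11). Cd3e had 12, 21 and 10 counts after sham surgery, 8, 12 and 7 after 24 h and 22, 27 and 8 after 3 d. The 3 groups overlapped, and within TIA 3d the deepest lane held the lowest count. Cd3d had 8, 10 and 10 counts after sham surgery, 8, 6 and 6 after 24 h and 13, 8 and 12 after 3 d. Cd3g had 6, 11 and 7 counts after sham surgery, 7, 8 and 10 after 24 h and 15, 8 and 9 after 3 d. Cd3d and Cd3g thus stayed within 6 to 15 counts in lanes whose totals differed 9.59-fold. In the RefSeq table of GRCm38.p6, Cd3d adjoins both Cd3e and Cd3g with 0 coding genes between them.

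Cd8a, the alpha chain of the CD8 coreceptor, had 3, 10 and 4 counts after sham surgery, 10, 8 and 6 after 24 h and 5, 9 and 7 after 3 d. The groups overlapped in counts, and the median Cd8a value stood at percentile 19.8 of its lane. Cd8b1, the partner chain, had 13, 13 and 21 counts after sham surgery, 9, 11 and 8 after 24 h and 20, 21 and 19 after 3 d, and it was over the quartile in all 9 lanes. The partner chains therefore did not share a position in the lanes.

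Granzymes A and B (Gzma and Gzmb) are proteases that enter target cells, and perforin (Prf1) forms the pore through which they pass. Gzmb had 6, 5 and 6 counts after sham surgery, 7, 6 and 7 after 24 h and 9, 12 and 14 after 3 d. In these unscaled counts all 3 TIA 3d lanes, which were also the deepest, lay above the other 6. That held for 1 gene of the 10, beside 35.7% of all genes. Gzma had 1, 3 and 6 counts after sham surgery, 3, 9 and 7 after 24 h and 10, 15 and 1 after 3 d. Prf1 had 10, 3 and 7 counts after sham surgery, 5, 6 and 1 after 24 h and 11, 3 and 9 after 3 d. In both Gzma and Prf1 the groups overlapped.

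Of the NK receptors, the activating receptor gene Klrk1 had 14, 11 and 19 counts after sham surgery, 19, 16 and 11 after 24 h and 10, 9 and 14 after 3 d. It was the 1 gene of the 10 over the lane median in all 3 TIA 24h lanes, and it reached percentile 96.2 of its lane in Sham replicate 3. Klrd1, whose protein CD94 pairs with NKG2 receptors, had 3, 5 and 6 counts after sham surgery, 5, 5 and 2 after 24 h and 5, 7 and 7 after 3 d. Ncr1, an activating receptor regarded as a defining NK cell gene, had 7, 3 and 3 counts after sham surgery, 5, 1 and 1 after 24 h and 4, 3 and 6 after 3 d. Its mean of 3.67 counts was the 5th lowest of the 757 genes, and it lay at or below the lower quartile of every lane. Klrd1 and Klrk1 are neighbours in the RefSeq table, with 0 coding genes between them, and ranked 21st and 361st from the lowest mean count.

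By mean count over the 9 lanes the order was Cd3e (14.1), Klrk1 (13.7), Cd3d and Cd3g (9 each), Gzmb (8), Cd8a (6.89), Gzma and Prf1 (6.11 each), Klrd1 (5) and Ncr1 (3.67). The ranges over lanes of each pair of neighbours in this order overlapped. The order pools lanes of unlike depth and differed by group, with Klrk1 first in Sham and at TIA 24h and Cd3e first at TIA 3d.

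Summed over the 10 genes, the counts ranged less than the lane totals. The sum was 70, 82 and 78 counts after sham surgery, 77, 77 and 58 after 24 h and 104, 101 and 87 after 3 d, a 1.79-fold range beside the 9.59-fold range of the totals. As a share of the lane total this was 0.274% (exact Clopper-Pearson 95% interval 0.213% to 0.346%), 0.550% and 1.19% (0.941% to 1.48%) in Sham. It was 0.705%, 0.972% and 0.800% at TIA 24h, and 0.202%, 0.346% and 0.138% (0.111% to 0.171%) at TIA 3d. The sums at TIA 3d lay above those of all 6 other lanes, while the shares at TIA 3d lay below those at TIA 24h, and the Sham shares spanned almost the whole range. At TIA 3d the part of depth in these shares cannot be told apart from that of the group. Split by role, the CD3 chains summed to 26 to 42 counts after sham surgery, 23 to 26 after 24 h and 29 to 50 after 3 d, the granule proteins to 11 to 19, 15 to 21 and 24 to 30, and the NK receptors to 19 to 28, 14 to 29 and 19 to 27.

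Gene sets of other cells were counted in the same way. The 10 neuron markers summed to 62 to 113 counts over the lanes (1.82-fold) and the 7 endothelial markers to 54 to 84 (1.56-fold). The 11 B lymphocyte genes summed to 78 to 249 (3.19-fold), the 18 other T and NK lineage genes to 111 to 310 (2.79-fold), the 5 astrocyte markers to 32 to 155 (4.84-fold) and the 12 blood myeloid genes to 112 to 541. The 12 oligodendrocyte markers summed to 118 to 879 (7.45-fold) and the 12 microglia markers to 194 to 12336 (63.6-fold). These folds compare the highest with the lowest lane and not the deepest with the shallowest. The oligodendrocyte sum, for example, was highest in Sham replicate 2 (879 counts), a lane of middle depth. Whether the counts of the 10 genes came from T or NK cells or from probe background was not tested, since the negative control probes are not among the genes of the table.

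**Figure D2:**
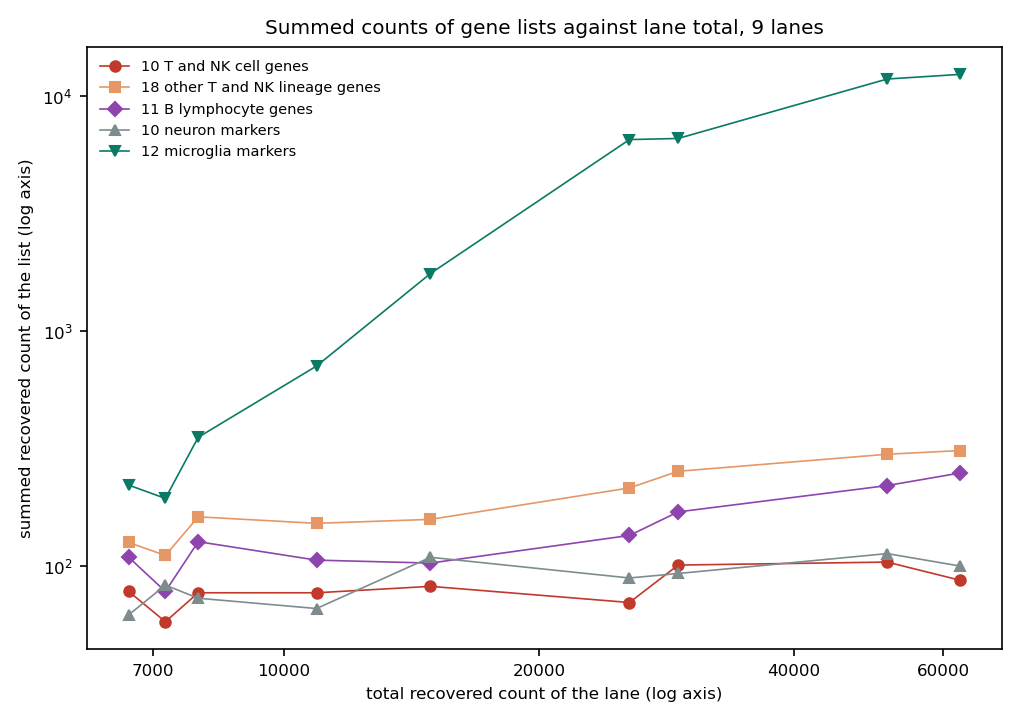
Summed recovered counts of 5 gene lists (vertical axis, log scale) against the total recovered count of the lane (horizontal axis, log scale), 1 point per lane for 9 lanes, with lines joining the lanes of a list in order of depth. The T and NK cell genes and the neuron markers stay between 58 and 113 counts at every depth, while the microglia markers rise from 194 to 12336.

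The groups were then compared on the deposited log2 scale, with limma fitted to all 757 genes and p-values adjusted over all of them. In a bulk sample, fewer cells of a type and less RNA per cell cannot be told apart. Replicates are separate animals, and no batch is given in the labels.

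At TIA 24h against Sham, 0 of the 10 genes passed an adjusted p of 0.05, and 0.0% of all genes did. At an unadjusted p under 0.05 there were 0 of the 10 genes and 57 of 757 in limma, and an unmoderated linear model passed 0 genes, as did voom on recovered counts. Cd8a came closest. Its log2 values were 1.52, 3.45 and 2.97 in Sham and 3.98, 3.89 and 3.51 at TIA 24h, a difference of 1.14 (SE 0.54, n = 3 per group, limma adjusted p = 0.689), with the TIA 24h animals all above the Sham animals. It was the 1 gene of 10 whose groups did not overlap, beside 9.78% of all genes. Gzma had -0.06, 1.71 and 3.56 in Sham and 2.24, 4.06 and 3.73 at TIA 24h, a difference of 1.61 with an SE of 1.05 (adjusted p = 0.723). Gzmb differed by 0.71 (SE 0.44, adjusted p = 0.722). Of the 10 differences 6 were above 0 and 4 below, with a median of 0.37 beside 0.15 over all genes. On the unscaled counts the median was -0.11 beside -0.32 over all genes. The 10 genes minus all genes gave 0.21 with any factor per lane, which moves all genes alike, and 0.07 after quantile normalization.

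At TIA 3d against Sham, again 0 of the 10 genes and 0.0% of all genes passed. Unadjusted p under 0.05 held for 1 of the 10 (Klrk1) and for 148 of 757 genes in limma, while at the adjusted threshold the unmoderated model gave 0 genes and voom 0. Klrk1 had log2 values of 3.75, 3.59 and 5.22 in Sham and 2.49, 2.94 and 2.94 at TIA 3d, a difference of -1.39 (SE 0.47, limma adjusted p = 0.160). Cd3d had 2.94, 3.45 and 4.30 in Sham and 2.87, 2.77 and 2.72 at TIA 3d, a difference of -0.78 (SE 0.42, adjusted p = 0.300). Both genes were lower in every TIA 3d animal than in every Sham animal, so that 2 of 10 did not overlap, beside 24.2% of all genes. Ncr1 differed by -0.93 (SE 0.56, adjusted p = 0.342), Prf1 by -0.82 (SE 0.69) and Gzmb by 0.03 (SE 0.44). In the deposited values 8 of the 10 differences were below 0, with a median of -0.63 beside -0.01 over all genes. On the unscaled counts 9 of 10 were above 0, with a median of 0.36 beside 0.98 over all genes. The 10 genes minus all genes gave -0.62 with any factor per lane and -0.42 after quantile normalization.

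Over all 3 groups, the moderated F test passed 0 of the 10 genes and 0.0% of all genes, with 2 of the 10 and 235 of 757 at an unadjusted p under 0.05. The smallest adjusted p was that of Klrk1 (0.0573), followed by Cd8a (0.112). The unmoderated model passed 0 genes, whereas with voom 290 did, 4 of them T and NK cell genes.

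More genes passed between TIA 3d and TIA 24h. In limma 145 of 757 genes (19.2%) passed, 11.6% of all genes higher and 7.53% lower at TIA 3d. Of the 10 T and NK cell genes, 2 (Klrk1 and Cd8a) passed as lower and 0 as higher. Klrk1 had log2 values of 4.90, 4.89 and 4.38 after 24 h and 2.49, 2.94 and 2.94 after 3 d, so that its highest value at TIA 3d lay below its lowest at TIA 24h. The difference was -1.93 (SE 0.47, n = 3 per group, limma adjusted p = 0.0245), from a mean of 4.72 ± 0.30 (SD) to 2.79 ± 0.26. Cd8a had 3.98, 3.89 and 3.51 after 24 h and 1.49, 2.94 and 1.94 after 3 d, again without overlap. Its difference was -1.67 (SE 0.54, adjusted p = 0.0474), from 3.79 ± 0.25 to 2.12 ± 0.74.

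The other 8 genes did not pass. Cd3g had 3.46, 3.89 and 4.24 after 24 h and 3.07, 2.77 and 2.30 after 3 d, a difference of -1.15 (SE 0.45, limma adjusted p = 0.0816). Cd3d differed by -0.76 (SE 0.42, adjusted p = 0.192), with every TIA 3d value below every TIA 24h value. Gzmb differed by -0.68 (SE 0.44, adjusted p = 0.269), also without overlap. Of the 10 genes 5 did not overlap, beside 48.3% of all genes, so the share was near that of the table as a whole. Gzma differed by -1.57, but with values of 2.49, 3.68 and -0.87 at TIA 3d its SE was 1.05 (adjusted p = 0.282). Klrd1 (-0.70), Cd3e (-0.52), Prf1 (-0.36) and Ncr1 (-0.18) had adjusted p-values of 0.356 to 0.840. The median over the 10 genes was -0.73, beside -0.25 over all genes.

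**Figure D3:**
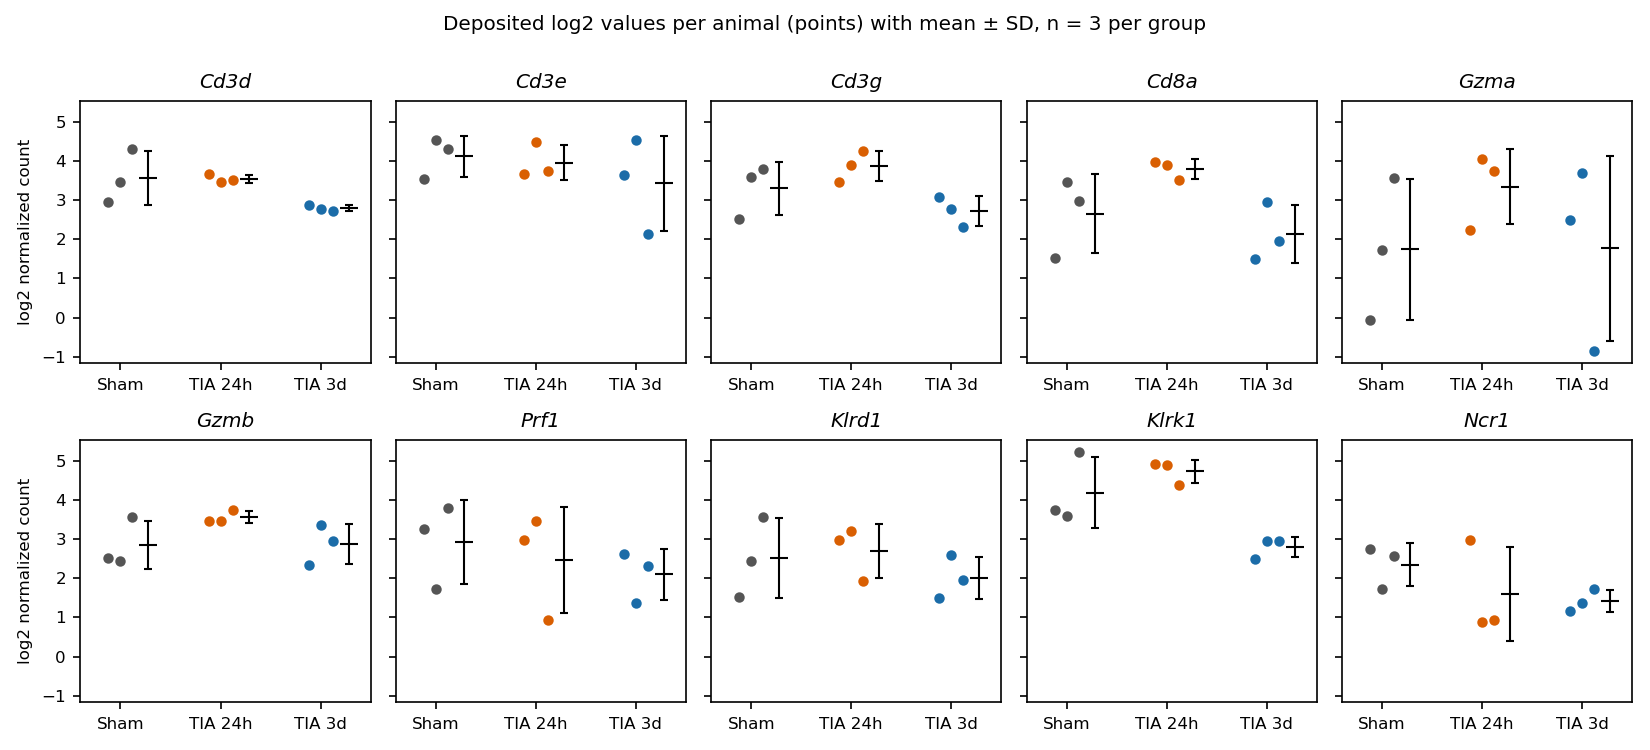
Deposited log2 normalized counts (vertical axis) of the 10 genes in Sham, TIA 24h and TIA 3d (horizontal axis), with 1 point per animal in replicate order and the mean ± SD of 3 animals beside each group. Klrk1 and Cd8a, which passed the test between the time points, have 3 TIA 24h values above all 3 TIA 3d values, as do Cd3d, Cd3g and Gzmb, which did not pass.

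In recovered counts the differences of Klrk1 and Cd8a were small. Klrk1 went from 19, 16 and 11 counts to 10, 9 and 14, and Cd8a went from 10, 8 and 6 to 5, 9 and 7, so the time points overlapped for both. The ratio of mean counts, TIA 3d over TIA 24h, was 0.717 for Klrk1 and 0.875 for Cd8a, the lowest of the 10 genes, and reached 2.11 for Cd3e. The median ratio was 1.62 over the 10 genes and 2.29 over all genes, while that of the lane totals was 5.50. The lane factors, which apply to all genes alike, were 1.58 to 1.89 after 24 h and 0.548 to 0.853 after 3 d.

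The sign of the differences between the time points followed the scaling: all 10 differences were below 0 in the deposited values and on counts per lane total, 9 were after median centring, 8 after quantile normalization and 3 (Klrk1, Cd8a and Gzma) on the unscaled counts. Klrk1 and Cd8a were below 0 under each of these scalings. On the unscaled counts the Klrk1 difference was -0.47 (limma adjusted p = 0.368) and that of Cd8a -0.20 (adjusted p = 0.765). With the lane total as a covariate they were -0.63 (adjusted p = 0.973) and -0.07 (adjusted p = 0.996). After median centring Klrk1 passed (-1.59, adjusted p = 0.0283) and Cd8a did not (-1.33, adjusted p = 0.0837), and after quantile normalization neither did (adjusted p = 0.142 and 0.181). The scalings also moved the median of all genes, to 0.09 with median centring, -0.03 with quantile normalization, -1.19 per lane total and 1.22 with no scaling. A factor per lane moves all genes alike, so the median of the 10 genes minus that of all genes was -0.48 in each of these scalings but quantile normalization, where it was -0.14.

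**Figure D4:**
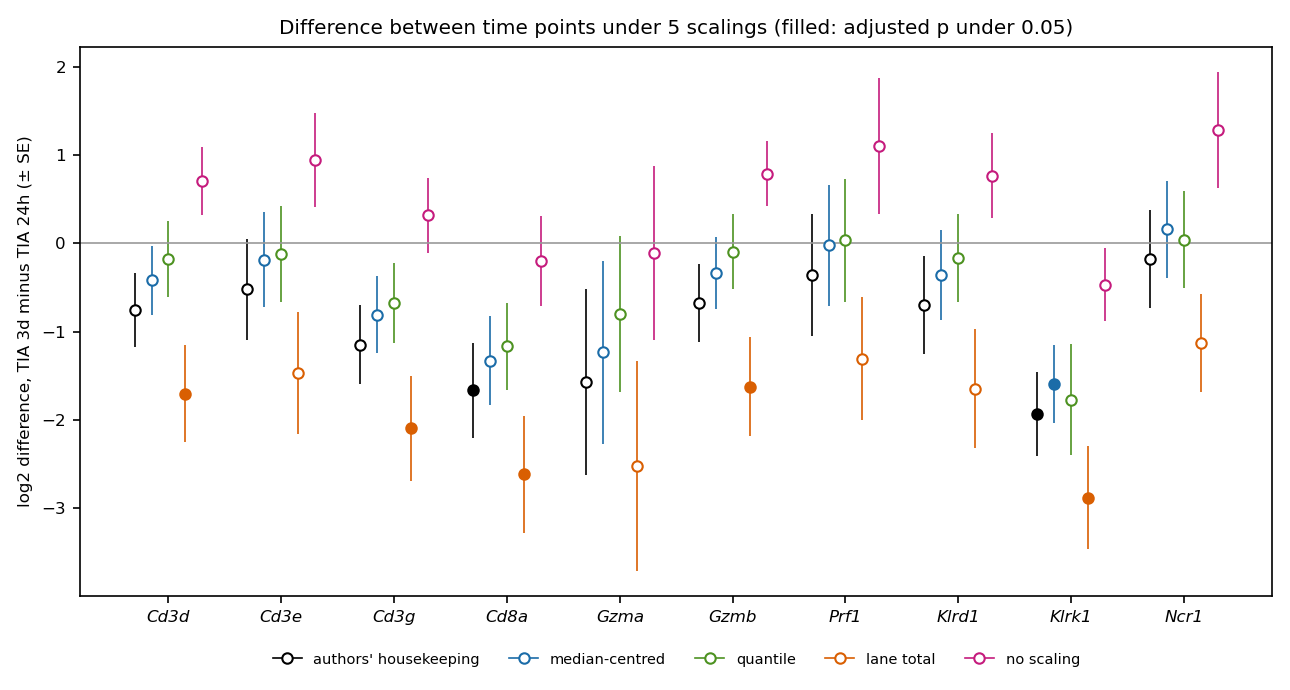
Log2 difference of TIA 3d minus TIA 24h (vertical axis, ± SE from limma) for each T and NK cell gene (horizontal axis) under 5 scalings of the lanes, with filled points for an adjusted p under 0.05. With no scaling 7 of the 10 genes are above 0, and per lane total all 10 are below 0.

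The calls were also lost in smaller designs. Klrk1 no longer passed without TIA 24h replicate 1 (adjusted p = 0.0506), 2 (0.0717) or 3 (0.0884), or without TIA 3d replicate 1 (0.0928) or 3 (0.0788). Cd8a no longer passed without any 1 of these 5 animals (limma adjusted p = 0.101 to 0.170) or without Sham replicate 2 (0.0502), and without the 2 shallowest lanes its adjusted p was 0.0585. Of all 757 genes, 85 passed in limma when TIA 24h replicate 1 was left out, and 0 passed when any other of these 5 animals was, so calls were lost across the table. The differences themselves stayed between -2.10 and -1.78 for Klrk1 and between -2.08 and -1.35 for Cd8a when 1 animal was left out. In the unmoderated linear model the adjusted p was 0.0912 for Klrk1 and 0.130 for Cd8a.

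For the genes that passed, Klrk1 and Cd8a, the 250 bases before the RefSeq start are shown (GRCm38.p6, gene strand, 5′ to 3′), since factors of the RUNX, ETS and T-box families are known to act on T and NK cell genes. Klrk1 is at chr6:129623865-129624114 on the minus strand and Cd8a at chr6:71373177-71373426 on the plus strand. Capitals mark the letters TGTGGT (a RUNX core), AGGAAG (an ETS core with flanks) or AGGTGT (a T-box core), searched on both strands.
Klrk1: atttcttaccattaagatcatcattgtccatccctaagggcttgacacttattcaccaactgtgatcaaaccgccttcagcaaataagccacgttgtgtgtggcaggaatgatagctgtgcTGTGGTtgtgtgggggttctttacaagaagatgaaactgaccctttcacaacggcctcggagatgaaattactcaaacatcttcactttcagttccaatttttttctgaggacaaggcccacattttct
Cd8a: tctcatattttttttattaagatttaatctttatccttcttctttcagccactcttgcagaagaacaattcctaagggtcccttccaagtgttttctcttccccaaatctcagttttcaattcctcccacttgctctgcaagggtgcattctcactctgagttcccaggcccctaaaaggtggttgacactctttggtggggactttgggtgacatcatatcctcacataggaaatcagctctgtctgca
The Klrk1 window held the RUNX letters 1 time and neither of the others, and the Cd8a window held 0 of the 3. Over 32851 mouse windows of the same length, 14.0% held TGTGGT, 29.5% AGGAAG and 11.8% AGGTGT. A match describes letters and is not a binding site, and no match says only that these letters are not in this window.

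The 18 other measured genes of the T and NK lineages gave a background for the 10. Between the time points 3 of 18 passed as lower, beside 7.53% of all genes, and 0 as higher, with a median difference of -0.93 beside -0.25 over all genes, and against Sham 0 of 18 passed at either time. The calls followed the scaling, with 1 lower and 1 higher after median centring, 0 after quantile normalization, 11 lower per lane total, and 4 higher (Cd8b1, Trat1, Lag3 and Il21r) and 0 lower with no scaling. On the unscaled counts 15 of 18 were above 0, with a median of 0.53 beside 1.22 over all genes. The list minus all genes gave -0.69 with any factor per lane and -0.57 after quantile normalization. Tbx21, which codes for the transcription factor T-bet of NK cells and killer T cells, had 5, 7 and 7 counts after 24 h and 7, 4 and 4 after 3 d (difference -1.84, SE 0.42, limma adjusted p = 0.0229). Nkg7, a granule membrane protein gene, had 14, 10 and 11 counts and then 13, 14 and 12 (-1.30, SE 0.40, adjusted p = 0.0422). Kir3dl2 had 9, 15 and 16 counts and then 12, 14 and 16 (-1.36, SE 0.43, adjusted p = 0.0474). As with Klrk1 and Cd8a, the counts of these genes overlapped between the time points. The lineage genes with the highest mean counts were Lag3 (4 to 88 counts), Il21r (2 to 53) and Cd244 (7 to 33). In the Sham lanes Lag3 had 51, 20 and 4 counts, Il21r 18, 6 and 5 and Cd244 19, 17 and 12. The microglia markers summed to 6515, 1755 and 221 in these lanes. Whether the counts of Lag3, Il21r and Cd244 came from T or NK cells was not tested. Lag3, an inhibitory receptor gene, differed by 1.52 (SE 0.58, adjusted p = 0.0754), Il21r, a cytokine receptor gene, by 1.39 (SE 0.56, adjusted p = 0.0892) and Cd244 by -0.65 (SE 0.44, adjusted p = 0.282).

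Of the 11 B lymphocyte genes, 1 passed as higher and 1 as lower in the TIA 3d than in the TIA 24h animals. Blnk, an adaptor gene of the B cell receptor pathway, had 18, 10 and 8 counts after 24 h and 78, 61 and 120 after 3 d (1.41, SE 0.45, limma adjusted p = 0.0455). Pnoc had 17, 18 and 11 counts and then 12, 9 and 17 (-1.76, SE 0.44, adjusted p = 0.0249). In the Sham lanes Blnk had 47, 21 and 10 counts, and the microglia markers summed to 6515, 1755 and 221. Whether the counts of Blnk and Pnoc came from B lymphocytes was not tested. Besides Blnk (8 to 120 counts), Blk (17 to 33) and Tnfrsf13c (6 to 22) had the highest mean counts of that list, and neither passed. Per lane total 6 of the 11 passed as lower and 0 as higher, with no scaling 0 as lower and 2 (Blnk and Tcl1) as higher, and after quantile normalization 0 passed. Among 12 blood myeloid genes 4 (Fpr1, Ms4a2, Cpa3 and Siglec1) passed as lower and 0 as higher. Their counts per lane were 7 to 12, 1 to 6, 4 to 9 and 9 to 18. Whether blood cells gave these counts was not tested. Of the 12, 5, 10 and 7 markers of oligodendrocytes, astrocytes, neurons and endothelium, 7 (Mobp, Myrf, Ugt8a, Gjb1, Bcas1, Enpp6 and Sox10), 1 (S100b), 1 (Gria2) and 2 (Cldn5 and Flt1) passed as lower and 0 as higher, beside 7.53% of all genes lower. These calls also followed the scaling: per lane total 9 blood myeloid, 11 oligodendrocyte, 4 astrocyte, 10 neuron and 7 endothelial genes passed as lower, after quantile normalization 3 oligodendrocyte markers and 0 of the others did, and with no scaling 0 did, while 1 blood myeloid gene (Csf3r) passed as higher. After median centring 0 blood myeloid, 3 oligodendrocyte, 1 astrocyte, 0 neuron and 2 endothelial genes passed as lower. Against Sham, 0 genes of these lists passed at either time. The median differences of these 6 lists between the time points ran from -0.82 (B lymphocyte and endothelial genes) to -1.52 (oligodendrocyte markers), and on the unscaled counts each of them but that of the oligodendrocyte markers (-0.05) was above 0, though below the median of 1.22 over all genes. The part of these cells or of depth in the values of Klrk1 and Cd8a was not tested.

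Against TIA 24h, the microglia markers at TIA 3d lay above 0 under each of the 5 scalings. In the deposited values all 12 passed as higher in the TIA 3d than in the TIA 24h animals (P2ry12, Tmem119, Cx3cr1, Csf1r, Sall1, Gpr34, Olfml3, Fcrls, Trem2, C1qa, C1qb and C1qc), with a median difference of 3.08. After quantile normalization all 12 were still above 0, but 0 passed, and per lane total 10 passed. Tmem119 differed by 3.31 (SE 0.79, limma adjusted p = 0.0232), P2ry12 by 3.12 (SE 0.90) and the chemokine receptor gene Cx3cr1 by 2.96 (SE 0.86). Of the sort genes, Itgam had 21, 14 and 7 counts after 24 h and 141, 129 and 231 after 3 d (2.20, SE 0.60, adjusted p = 0.0334). Ptprc, which codes for CD45, had 29, 12 and 17 counts and then 126, 70 and 136 (1.09, SE 0.45, adjusted p = 0.0919). Of these 2 sort genes 0 passed per lane total or after quantile normalization, and both did after median centring and with no scaling.

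Genes for the recruitment of T and NK cells, 8 of them measured, went both ways: 2 passed as higher and 2 as lower in the TIA 3d than in the TIA 24h animals. Ccl3 had 47, 18 and 21 counts and then 593, 117 and 1190 (2.60, SE 0.74, limma adjusted p = 0.0373), and Ccl4 had 12, 16 and 5 and then 106, 47 and 202 (1.88, SE 0.59, adjusted p = 0.0455). Both code for chemokines that draw leukocytes. After quantile normalization 0 of the 8 passed, per lane total Ccl4 no longer did and Cxcl9 passed as lower, and with no scaling neither Ccl5 nor Cx3cl1 did. In the deposited values Ccl5, a chemokine gene that T and NK cells themselves express, had a difference of -1.96 (counts of 7, 6 and 8 and then 4, 3 and 10, SE 0.46, adjusted p = 0.0229). Cx3cl1, the ligand of CX3CR1, had 15, 10 and 9 counts and then 14, 6 and 10 (-1.69, SE 0.45, adjusted p = 0.0304). Of 7 genes for adaptors and ligands of the killer cell receptors 1 passed, as higher, beside 11.6% of all genes higher. This was Tyrobp, whose adaptor DAP12 serves NK receptors and also microglial TREM2. It had 20, 13 and 16 counts and then 420, 235 and 582 (3.12, SE 0.70, adjusted p = 0.0229). After quantile normalization 0 of the 7 passed, and after median centring 2 did as higher (Tyrobp and Vav1). Per lane total Tyrobp passed as higher and Il15ra as lower. With no scaling 4 passed as higher (Tyrobp, H2-T23, Syk and Vav1).

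Outside the 10 genes, the log2 values most like their mean over the 9 samples were those of Osgin1 (Pearson r = 0.97), Emcn (r = 0.95) and Bard1 (r = 0.95). Osgin1 had 11 to 25 counts per lane and Emcn, an endothelial gene, 8 to 20. All values of a lane share its lane factor, so the likeness is a description of these 9 lanes.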

How the data were processed

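Transcripts of sorted brain cells from 9 mice (3 each of Sham, TIA 24h and TIA 3d, grouped by sample title) were counted on an nCounter panel. The authors deposited 1 table of log2 normalized counts. Per the methods, housekeeping probes chosen by geNorm scaled each lane in ROSALIND, and genes under the highest negative control were excluded. Whether that exclusion was applied to this table, and which genome build the probes follow, is not given in the sources used here. The table holds no control probe.

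Whole counts were recovered as multiples of a single step per lane, within 0.01 counts for every value. They served for depth, quartiles and named alternatives. Exact 95% intervals (Poisson for counts, Clopper-Pearson for shares) cover counting error only. Each gene was fitted with moderated linear models in limma 3.58.1 under R 4.3.3 (7.23 prior degrees of freedom) on the 9 samples, with a mean per group. Contrasts were two-sided, and the Benjamini-Hochberg adjustment covered 757 genes, with a threshold of 0.05. The p-values measure the spread between these samples. The procedures were tested on simulated data.

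The alternatives were median centring, quantile normalization, counts per lane total, voom, dropping genes whose mean lay under the 0.25 quantile, an intensity trend with a robust prior, an unmoderated linear model, the lane total as covariate, the replicate number as block, each sample left out, a stricter quartile rule and a quartile over the genes of no lymphocyte list. Counts with no scaling and leaving out the 2 shallowest lanes were added after the data were seen.

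The 10 genes and the 11 other lists were chosen with earlier results of these data known. The text names all 10, the sort genes, P2ry12, Tmem119 and Cx3cr1, every listed gene that passed, the 3 T and NK lineage genes and 3 B lymphocyte genes with the highest mean count, and the 3 genes most correlated with the mean of the 10. Cd8b1 was named after its values were seen, as the partner of Cd8a. Symbols of 750 of 757 genes, and of all 10, matched the RefSeq table of GRCm38.p6, which also gave the sequences. A later time point of the study was not analysed here.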

Additional observations from a re-analysis of the deposited data

Results flagged for a closer look

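Klrk1 and Cd8a are listed because their values differed between the 2 times after TIA, in the contrast of TIA 3d with TIA 24h. The log2 difference was -1.93 for Klrk1 (SE 0.47, limma adjusted p = 0.0245) and -1.67 for Cd8a (SE 0.54, adjusted p = 0.0474), each lower in 3 of 3 TIA 3d animals than in every TIA 24h animal. Of all genes 19.2% passed this contrast and 48.3% did not overlap in it. The recovered counts of both genes overlapped, and both calls were lost without any 1 of 5 animals (all 3 of TIA 24h and TIA 3d replicates 1 and 3), that of Cd8a also without Sham replicate 2. Depth differed between the same lanes, with totals of 7248 to 10929 after 24 h and 29200 to 62883 after 3 d, and its part cannot be told apart from that of the time point. With 3 animals per group, single animals were not examined as outliers.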

How the results depend on the processing

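Of the 10 genes, 0 passed at TIA 24h or TIA 3d against Sham under every alternative run. Between TIA 3d and TIA 24h, where 2 passed, the number was 5 per lane total, 8 with voom, 1 after median centring, without genes of low mean (4 of the 10 genes kept) and without the 2 shallowest lanes, and 0 with quantile normalization, the unmoderated linear model, the lane total as covariate and no scaling. Leaving out 1 animal gave 0 to 3. In the F test, where 0 passed, 3 did per lane total (181 of all genes), 4 with voom (290), 1 each with the intensity trend (50), without genes of low mean (40) and without the 2 shallowest lanes (28), and 0 to 2 with 1 animal left out (0 to 136). All genes passing between the time points were 145 in the deposited values, 0 to 226 with 1 animal left out, 7 after quantile normalization, 344 per lane total, 385 with voom, 334 with no scaling and 0 with the covariate or the unmoderated model. Of 41 values over the lower quartile, 8 had a Poisson interval wholly over it, 10 were over the median, 26 lay outside the 2 shallowest lanes, and 33 to 38 were counted with 1 lane left out. The number of genes over the quartile in every lane was 0, and 0 to 1 with 1 lane left out. Of the log2 differences of single genes over all alternatives, 489 kept their direction and side of the threshold, 10 crossed to pass, 21 no longer passed and 62 turned sign without passing. Residuals of same-numbered animals correlated at -0.24 to 0.27, and those of differently numbered animals at -0.37 to 0.31. These ranges overlap and cannot decide whether replicate numbers pair the samples. With the replicate block 2 of the 10 genes passed between the time points, beside 140 of all genes. The 2 were Klrk1 (adjusted p = 0.0263) and Cd8a (adjusted p = 0.0369). In the F test with this block 0 of the 10 passed, beside 54 of all genes. Relative to Sham 0 of the 10 passed with it after either interval, while of all genes 1 did after 3 d and 0 after 24 h. At 1 to 27 counts per value, small changes of these genes could not be measured.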
